A study of Mus musculus with 6 samples.

Results

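Of the 11888 standard ATF3 peaks listed for macrophages in 3 conditions, 820 had their centre in the first intron of a RefSeq transcript and on no annotated repeat. They were taken by the annotation of the lists alone, as intron 1 of the host transcript with no repeat named at the peak centre. These were 130 of the 2779 unstimulated peaks, 424 of the 5319 HDL peaks and 266 of the 3790 HDL + CpG peaks. Joined where they shared a base, the 820 peaks formed 604 separate loci in 532 host transcripts, 530 of which could be named. Some 463 named host genes held 1 locus and 63 held 2 or more.

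The ChIP-seq libraries came from bone marrow-derived macrophages (BMDMs) of ATF3-deficient (KO) mice and of WT C57BL/6 mice, 6 to 8 weeks of age, grown with M-CSF at 40 ng/ml. In each genotype the cells were left unstimulated, treated with HDL at 2 mg/ml for 6 h, or given the same HDL treatment and then CpG at 100 nM for 4 h. How the deficiency was made is not given in the sources used here, and both genotypes were precipitated with the same rabbit polyclonal ATF3 antibody. Reads of the 3 biological replicates had been concatenated, so each condition had 1 KO and 1 WT library and no spread between mice could be measured. The intervals given here cover counting error only, and they compare these libraries, not genotypes or treatments in general. The KO libraries held 47504605 to 75534584 reads and the WT libraries 37137377 to 49467421. A median first-intron peak held 21 to 36 KO reads and 38 to 54 WT reads, depending on the condition.

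ATF3 is a basic leucine zipper factor of the ATF/CREB family. It is induced in macrophages by stress and Toll-like receptor ligands and by HDL, and it dampens inflammatory gene expression. Its dimers with Jun proteins bind the AP-1 heptamer TGACTCA, read TGAGTCA on the other strand, and dimers with CREB-like partners bind the CRE octamer TGACGTCA. First introns are a common place for enhancers, and in macrophages AP-1 sites in such elements often lie near sites of PU.1, the myeloid ETS factor. A ChIP peak in an intron does not show which gene it regulates. Cells without ATF3 give the signal that an antibody recovers in the absence of its target. The knockout implemented normalization (KOIN) used the KO library as the control, and a standard peak is called kept where a KOIN-corrected peak of its condition overlaps it by at least 1 bp, and removed otherwise.

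The sequences below were read from the mm9 assembly on the plus strand, 5′ to 3′, and are shown because the comparisons of kept and removed peaks turn on them. The first 11 are first-intron loci kept in 1 or more conditions, with the AP-1 heptamers within 100 bp of the peak centre in capitals and 20 bases on each side.
Cd36 (chr5:17385920-17385966): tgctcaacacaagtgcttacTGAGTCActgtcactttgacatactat
Msra (chr14:64987226-64987353): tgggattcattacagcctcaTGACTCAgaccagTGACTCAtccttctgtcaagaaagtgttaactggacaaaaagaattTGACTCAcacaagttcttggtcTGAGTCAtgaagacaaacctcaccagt
Taok3 (chr5:117608588-117608634): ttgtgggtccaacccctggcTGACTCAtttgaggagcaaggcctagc
Anxa11 (chr14:26681414-26681460): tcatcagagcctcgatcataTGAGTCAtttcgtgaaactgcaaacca
Map2k3 (chr11:60749020-60749088): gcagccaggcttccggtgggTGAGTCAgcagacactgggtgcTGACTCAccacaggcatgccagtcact
Arhgap18 (chr10:26519558-26519604): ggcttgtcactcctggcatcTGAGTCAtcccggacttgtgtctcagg
Fbxw11 (chr11:32544163-32544209): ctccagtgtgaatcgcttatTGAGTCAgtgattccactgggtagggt
Cdkn1a (chr17:29232497-29232543): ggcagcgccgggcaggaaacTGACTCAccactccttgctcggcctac
Ptprj (chr2:90382923-90383060): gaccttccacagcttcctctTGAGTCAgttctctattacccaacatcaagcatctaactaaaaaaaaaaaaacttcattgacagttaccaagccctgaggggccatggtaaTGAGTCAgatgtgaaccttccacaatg
Abl1 (chr2:31597911-31597957): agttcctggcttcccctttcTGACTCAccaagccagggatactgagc
Lhfpl2 (chr13:94868479-94868525): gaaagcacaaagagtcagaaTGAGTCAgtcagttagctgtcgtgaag
Msra carried 4 heptamers in one window, and Map2k3 and Ptprj carried 2 each.

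The heptamer was present in removed peaks too. Jazf1 is shown at its HDL peak, which was removed with 8.48 KO and 18.2 WT tags, while the unstimulated peak of the locus was kept.
Jazf1 (chr6:52853412-52853458): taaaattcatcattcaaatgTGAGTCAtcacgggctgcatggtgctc

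The last pair is the central 61 bases of removed peaks without an AP-1 heptamer within 100 bp.
Litaf (chr16:10975083-10975143): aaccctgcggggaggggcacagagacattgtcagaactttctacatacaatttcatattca
Tiam2 (chr17:3379926-3379986): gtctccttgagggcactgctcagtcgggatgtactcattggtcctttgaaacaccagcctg

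By position, the first-intron peaks lay kilobases from annotated start sites. Their median distance from the nearest annotated start site was 10.8 kb in unstimulated cells, 10.0 kb with HDL and 9.23 kb with HDL + CpG. An annotated CpG island held 13 of the 820. In 770 the host gene was also the gene of the nearest start site, while 48 lay nearest to another gene's. In an independent annotation, GENCODE vM1, 796 of the 820 centres fell in a first intron, 130 of which fell in a later intron of another transcript as well. The peaks were 728.5, 765 and 760.5 bp wide in the median, in the same order of conditions.

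The first question was how much of the first-intron signal was left once KO chromatin was taken into account. In unstimulated cells 58 of the 130 peaks were kept (44.6%, 95% Wilson interval 36.4 to 53.2%), where 20.7% of all standard peaks were. With HDL 291 of 424 were kept (68.6%, 64.1 to 72.9%), against 54.9% of all standard peaks. With HDL + CpG 166 of 266 were kept (62.4%, 56.5 to 68.0%), against 29.7% of all standard peaks. The kept share of first-intron peaks was above that of the whole list in each condition, with the smallest ratio of the shares in HDL cells. With a score of at least 100 the kept share became 12.5% (1 of 8), 87.5% (28 of 32) and 31.2% (5 of 16), against 9.08, 63.3 and 8.80% of all standard peaks at that score, and the Wilson interval of the first (2.24 to 47.1%) held the share of all peaks.

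The kept share was lower where a repeat lay at the centre. First-intron peaks centred on a repeat were kept at 17.9% (12.3 to 25.3%, 24 of 134) in unstimulated cells, 54.4% (48.1 to 60.7%, 129 of 237) with HDL and 14.9% (10.2 to 21.2%, 24 of 161) with HDL + CpG. Peaks off repeats in later introns were kept at 39.1% (33.4 to 45.1%, 102 of 261), 66.2% (62.6 to 69.6%, 468 of 707) and 51.4% (46.8 to 56.0%, 232 of 451). The intervals of first and later introns overlapped in unstimulated and HDL cells and lay just apart with HDL + CpG. Intergenic peaks off repeats were kept at 29.4%, 60.4% and 42.6%, below the interval of the first-intron peaks in each condition. The difference between these classes of peaks was not tested, since peaks of 1 library are not replicates.

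**Figure D1:**
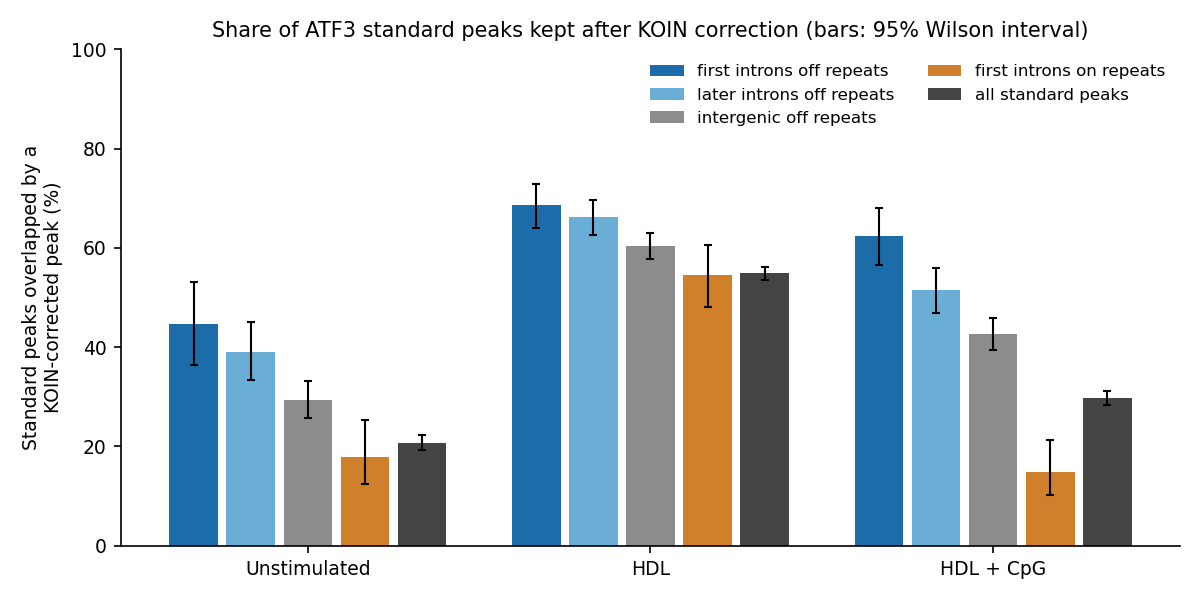
Share of standard ATF3 peaks overlapped by a KOIN-corrected peak (y axis, percent) in each condition (x axis), for first-intron peaks off repeats, later-intron and intergenic peaks off repeats, first-intron peaks on repeats and all standard peaks, with 95% Wilson intervals. First introns off repeats had the highest bar in each condition, at 44.6, 68.6 and 62.4%, and first introns on repeats reached 17.9, 54.4 and 14.9%.

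Tags in the peaks, scaled to a total of 10000000 per library, showed where kept and removed peaks parted. In unstimulated cells kept peaks had a median of 3.44 KO tags and 10.5 WT tags, while removed peaks had 5.96 KO tags and 10.1 WT tags. With HDL the medians were 3.78 KO and 11.6 WT tags in kept peaks, and 5.60 KO and 10.3 WT tags in removed ones. With HDL + CpG they were 3.37 KO and 10.9 WT tags in kept peaks, and 6.10 KO and 10.6 WT tags in removed ones. WT tags were thus much alike in both, and the KO level differed. A fold filter on the same libraries had helped to choose the kept peaks, so none of them had a WT/KO below 2, and this contrast is a description.

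**Figure D2:**
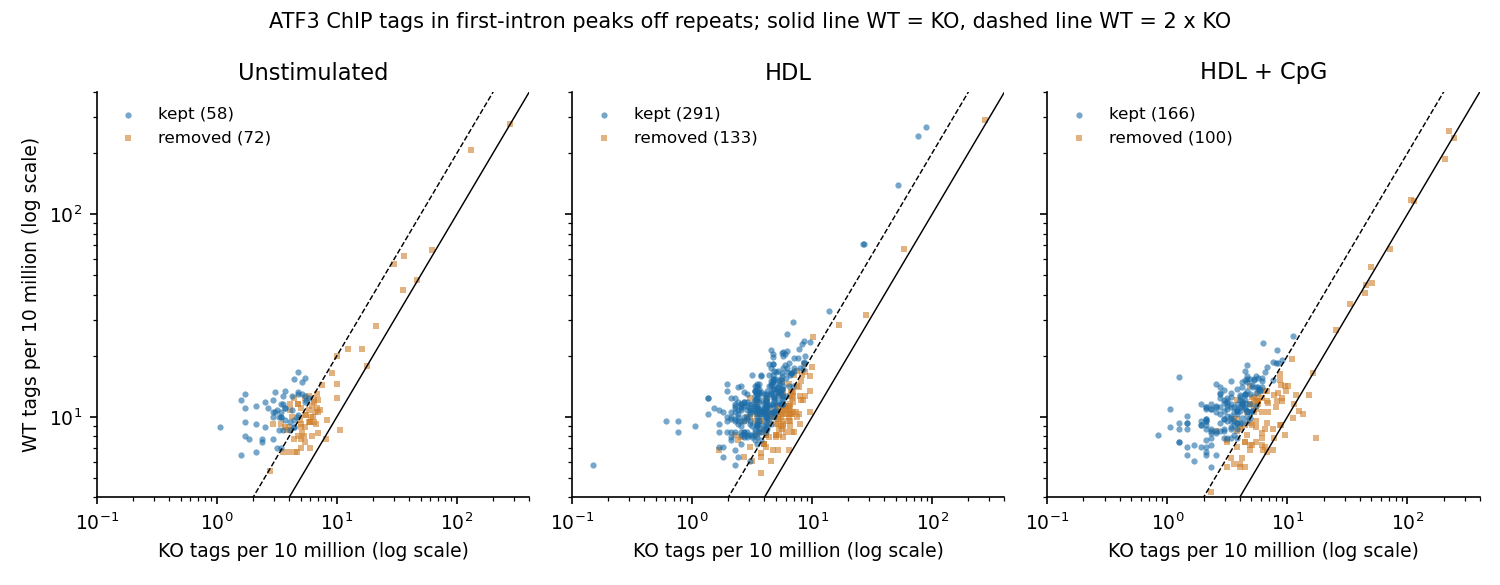
KO tags (x axis) and WT tags (y axis) of each first-intron peak off repeats, scaled to 10000000 per library, on log scales, for the 3 conditions, with kept peaks as circles and removed peaks as squares. Most peaks lay between 5 and 20 WT tags in both classes, kept peaks lay above the dashed 2-fold line, and the few peaks over 50 WT tags lay along the line of equality with HDL + CpG.

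The WT/KO ratio of first-intron peaks had a median of 2.16 in unstimulated cells (95% order-statistic interval 1.92 to 2.35), 2.69 with HDL (2.58 to 2.80) and 2.55 with HDL + CpG (2.38 to 2.74). Over all standard peaks the medians were 1.66, 2.41 and 1.42, and in later introns off repeats 2.12, 2.65 and 2.29. A ratio of at least 2 was found in 73 of 130 unstimulated peaks (56.2%, against 31.3% of all standard peaks), 340 of 424 HDL peaks (80.2%, against 66.6%) and 192 of 266 HDL + CpG peaks (72.2%, against 34.6%). In later introns off repeats the share was 55.9, 76.1 and 59.4%, near that of first introns in unstimulated and HDL cells. Peaks had been called on WT reads, so a ratio above 1 was partly set by that choice. Of the first-intron peaks with a ratio of at least 2, 15 of 73, 49 of 340 and 26 of 192 had nonetheless been removed. Over all standard peaks 296 of 870, 626 of 3545 and 186 of 1313 had. Removed first-intron peaks were not all equal in KO and WT either. The exact interval of WT/KO lay above 1 in 43 of 72 unstimulated, 92 of 133 HDL and 45 of 100 HDL + CpG peaks that were removed. That count was not made over all removed standard peaks, so it cannot be called particular to first introns.

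The level of the ratio in HDL cells has to be read beside that of repeats. Standard peaks centred on any annotated repeat had a median WT/KO of 1.52 in unstimulated cells, 2.20 with HDL and 1.10 with HDL + CpG, which is a shift of 0.61, 1.14 and 0.13 on the log2 scale. Divided by those medians, the first-intron medians became 1.42, 1.22 and 2.33. The share at 2-fold or more became 23.1% (30 of 130), 8.73% (37 of 424) and 64.7% (172 of 266). On this scale the HDL + CpG libraries held the highest and the HDL libraries the lowest share, the reverse of the order of those 2 conditions on library totals. The 2-fold filter behind the kept calls also used tags scaled to library totals. Kept shares, and single loci kept in one condition and removed in another, therefore rest on that scale. The kept calls were not remade on the repeat scale, and which scale fits the HDL libraries was not tested.

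Of the 4 sequences searched, the AP-1 heptamer was the most frequent in first-intron peaks. It lay within 100 bp of the centre in 28.5% of them in unstimulated cells (37 of 130), 30.0% with HDL (127 of 424) and 37.2% with HDL + CpG (99 of 266). The share over all standard peaks was 9.36, 16.4 and 16.6%, and in later introns off repeats 19.9, 25.3 and 30.2%. In windows of the same length shifted by 1000 bp it was present beside 0.769, 3.77 and 2.26% of the first-intron peaks. A match of 7 letters is a description of the sequence and not a measured site.

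Kept peaks held the heptamer more often than removed ones, and removed ones held it more often than shifted windows. In unstimulated cells it was found in 21 of 58 kept peaks (36.2%, 25.1 to 49.1%) and 16 of 72 removed peaks (22.2%, 14.2 to 33.1%). With HDL it was found in 98 of 291 kept peaks (33.7%, 28.5 to 39.3%) and 29 of 133 removed peaks (21.8%, 15.6 to 29.6%). With HDL + CpG it was found in 75 of 166 kept peaks (45.2%, 37.8 to 52.8%) and 24 of 100 removed peaks (24.0%, 16.7 to 33.2%). The intervals overlapped in the first 2 conditions and did not with HDL + CpG. The split by kept and removed was not made over all standard peaks. It cannot be called particular to first introns, here or read the other way below. Shifted windows of removed peaks had it in 1 of 72, 1 of 133 and 3 of 100 cases. Shifted windows of kept unstimulated peaks had it in 0 of 58, which allows a share of up to 5.17%.

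**Figure D3:**
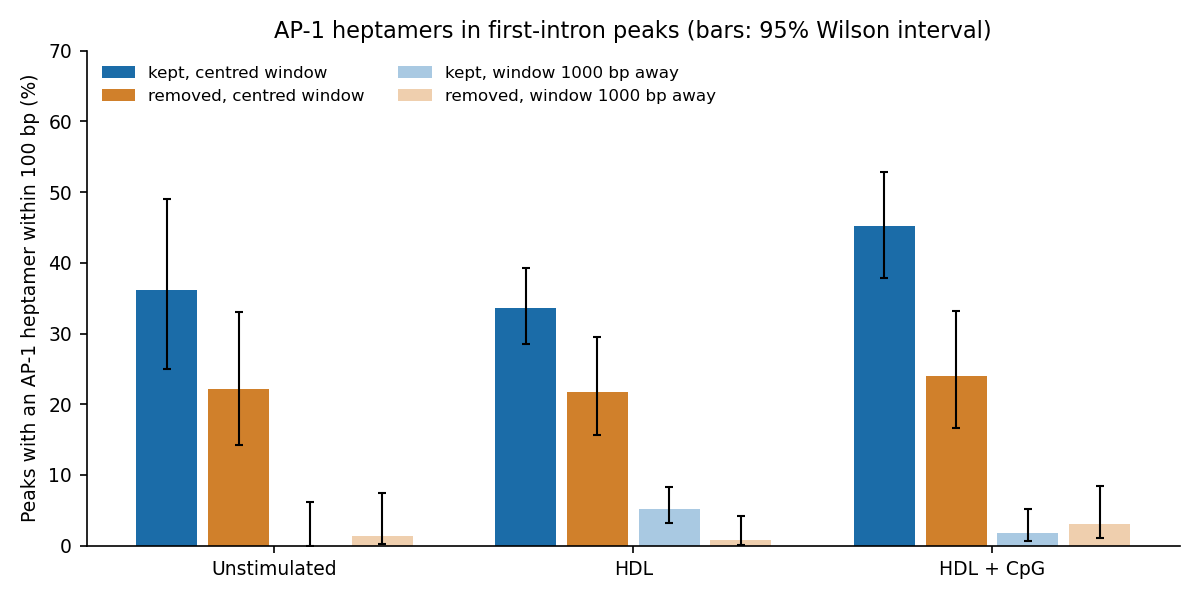
Share of first-intron peaks with an AP-1 heptamer within 100 bp of the centre (y axis, percent) by condition (x axis), for kept and removed peaks and for windows 1000 bp away from the same peaks, with 95% Wilson intervals. Kept peaks reached 36.2, 33.7 and 45.2%, removed peaks 22.2, 21.8 and 24.0%, and no shifted window passed 5.16%.

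Read the other way, first-intron peaks with the heptamer were kept at 56.8, 77.2 and 75.8% in the 3 conditions, and those without it at 39.8, 65.0 and 54.5%. Heptamers within 100 bp of the centre lay at a median distance of 38, 42 and 36 bp from it, a value that the window itself bounds. In kept HDL + CpG peaks there were 18.1 heptamers per 100 peaks in the 50 bp after the centre, and 1.21 and 3.01 in the bins from 200 to 250 bp on either side of it. Some 17 first-intron peaks had more KO than WT tags, 2 in unstimulated cells, 15 with HDL + CpG and 0 of 424 with HDL, which allows a share of up to 0.708%. Over all standard peaks 307 of 2779, 323 of 5319 and 936 of 3790 did. Of these 17, 0 held an AP-1 heptamer, which allows a share of up to 17.6%.

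**Figure D4:**
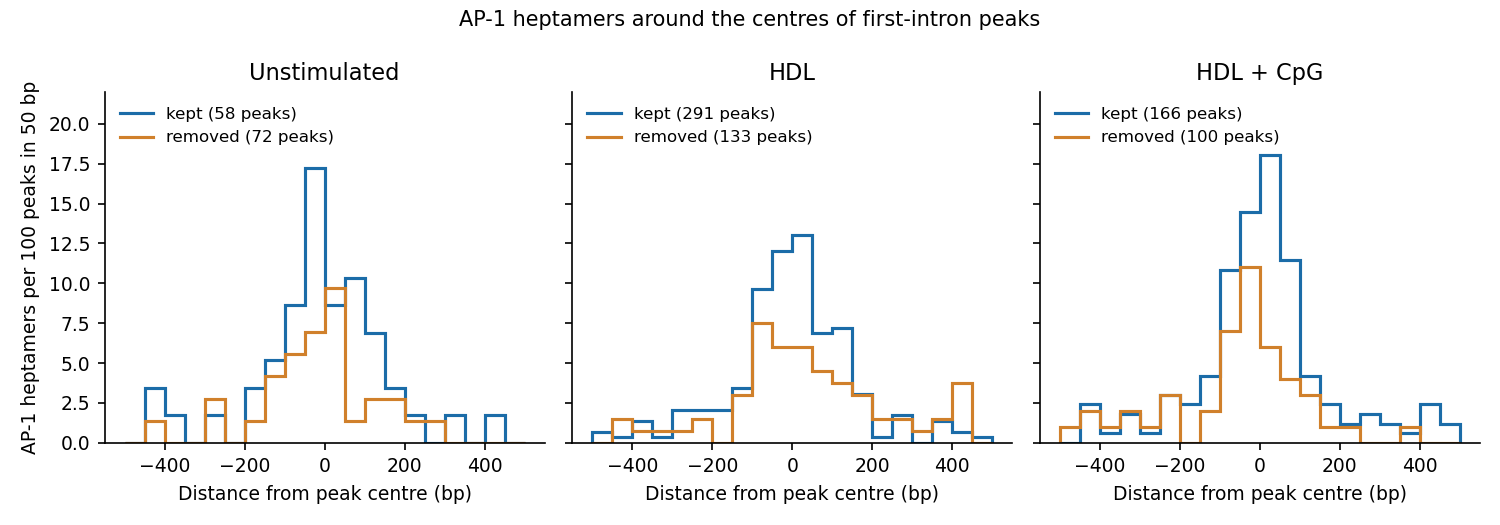
AP-1 heptamers per 100 first-intron peaks in bins of 50 bp (y axis) against the distance from the peak centre in bp (x axis), for kept and removed peaks of each condition. In kept and removed peaks alike the heptamers crowded within about 100 bp of the centre, with up to 18.1 per 100 kept peaks and 11.0 per 100 removed peaks in a bin with HDL + CpG.

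Other sequences were rarer. The CRE octamer lay within 100 bp in 5 peaks, 1, 2 and 2 in the 3 conditions, and all 5 had been kept. That was 0.769, 0.472 and 0.752% of first-intron peaks, near the 0.252, 0.696 and 0.660% of all standard peaks. The 5 are named after their values were seen, and lay in Mbnl2, which encodes a splicing regulator (3.44 KO and 10.5 WT tags, unstimulated), in Ilvbl (3.03 KO and 11.1 WT tags, HDL), in Btg3, an antiproliferative gene (2.11 KO and 9.10 WT tags, HDL + CpG), and in Rab31, a small GTPase of vesicle traffic. The Rab31 peak held 3.78 KO and 8.44 WT tags with HDL, and 2.11 KO and 9.70 WT tags with HDL + CpG. The PU.1 sequence GAGGAAGT was found in 12 unstimulated, 36 HDL and 19 HDL + CpG peaks (9.23, 8.49 and 7.14%), against 2.56, 4.36 and 3.64% of all standard peaks. In later introns off repeats its share was 3.8, 7.4 and 6.2%, near that of first introns with HDL and HDL + CpG. TGATGCAA, a composite C/EBP and ATF sequence, was found in 7, 20 and 8 peaks (5.38, 4.72 and 3.01%), against 2.27, 3.03 and 1.95% of all standard peaks. Later introns off repeats held TGATGCAA in 3.8, 4.4 and 1.8% of peaks. Both strands were searched, and none of the 4 sequences contains another.

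Of the 36 loci listed as first-intron peaks in all 3 conditions, 6 were kept in each, 7 were removed in each and 23 were kept in some. The 6 lay in Cd36, Msra, Taok3, Anxa11, Gcnt2 and Dcakd, and the first 4 of these carry the heptamers printed above. Their tags rest on 10 to 114 reads in a library. The 2-fold filter behind the kept calls used the same libraries. WT above KO was thus set by the choice of these loci, and their ratios and intervals are descriptions.

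Cd36 encodes the scavenger receptor that takes up oxidized lipoproteins and fatty acids. Its peak, 8.84 to 8.91 kb from the nearest start site, had 3.44 KO and 9.96 WT tags in unstimulated cells, 5.90 KO and 17.9 WT tags with HDL, and 6.32 KO and 23.1 WT tags with HDL + CpG. The WT/KO ratios were 2.90 (exact 95% interval 1.71 to 4.98), 3.04 (2.02 to 4.63) and 3.65 (2.42 to 5.65). A different Cd36 peak, at 3.78 kb, had 5.30 KO and 12.9 WT tags with HDL and was removed.

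Msra encodes methionine sulfoxide reductase A, which repairs oxidized methionine. Its peak had 4.77 KO and 12.9 WT tags in unstimulated cells, 4.54 KO and 17.4 WT tags with HDL, and 2.11 KO and 11.1 WT tags with HDL + CpG. The ratios were 2.71 (1.72 to 4.301), 3.83 (2.45 to 6.11) and 5.27 (2.67 to 11.6), whose intervals overlap. Anxa11 encodes a calcium-dependent phospholipid-binding protein. It had 2.91 KO and 10.5 WT tags unstimulated, 2.27 KO and 11.1 WT tags with HDL, and 2.95 KO and 13.5 WT tags with HDL + CpG, at ratios between 3.61 and 4.88.

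Taok3 encodes a kinase of the MAP kinase cascades. It had 3.44 KO and 11.6 WT tags unstimulated, 5.60 KO and 11.6 WT tags with HDL, and 8.00 KO and 18.4 WT tags with HDL + CpG, at ratios of 3.37, 2.07 and 2.30. Gcnt2, a glycosyltransferase gene, had a peak at chr13:41016370-41017333 in unstimulated cells and ratios of 2.99, 2.81 and 3.58. Dcakd, at chr11:102868077-102869046 in unstimulated cells, had 2.13, 2.28 and 2.10, the lowest of the 6 in unstimulated and HDL + CpG cells. Neither Gcnt2 nor Dcakd had an AP-1 heptamer within 100 bp.

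Most loci held a first-intron peak off repeats in a single condition, whether or not a peak of another class overlapped them in another list. There were 258 loci with HDL only, 126 with HDL + CpG only and 40 in unstimulated cells only, against 180 in 2 or 3 conditions. The HDL list was also the longest, with 5319 standard peaks against 3790 with HDL + CpG and 2779 unstimulated. The same count over all standard peaks was not made, so these numbers cannot be called particular to first introns. Of the 180 loci in 2 or 3 conditions, 68 were kept in each condition, 34 removed in each, and 78 kept in some. Where HDL and unstimulated lists shared a locus (76 loci), the median of HDL over unstimulated tags was 0.98 in KO and 1.15 in WT. WT tags were higher with HDL at 58 of these loci, a count not made over all standard peaks. For HDL + CpG over HDL (126 loci) the medians were 0.92 in KO and 0.88 in WT, and for HDL + CpG over unstimulated (50 loci) 1.15 in KO and 0.99 in WT. Over all standard peaks that met a peak of the other list, the same medians were 0.88 in KO and 1.13 in WT (HDL over unstimulated), 1.26 and 0.83 (HDL + CpG over HDL), and 1.24 and 0.90 (HDL + CpG over unstimulated), KO first in each. The 3 comparisons share libraries. Tags were counted over each list's own peak, and at the 76 loci HDL peaks were wider in the median (798.5 against 749.5 bp unstimulated).

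The peaks with the most tags were a group apart. Of the 820, 19 had at least 50 WT tags, and they lay at 13 loci, all of which overlapped a standard peak in each of the 3 lists. Of the 5, 7 and 7 such peaks in the 3 conditions, 0, 5 and 0 were kept. The widest was in Pisd-ps2, a pseudogene transcript at the start of chromosome 17 (chr17:3078854-3084809 in unstimulated cells), where a peak of 4355 to 6012 bp had 275.9 KO and 277.6 WT tags unstimulated, 272.6 KO and 289.5 WT tags with HDL, and 220.4 KO and 257.8 WT tags with HDL + CpG. It was removed each time.

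Several of these loci held telomere-type copies beside a centre annotated as off repeats. At least 2 adjacent copies of the hexamer TTAGGG, the unit of telomeric DNA, on either strand, were found in 4 unstimulated, 8 HDL and 6 HDL + CpG first-intron peaks, of which 0, 5 and 0 were kept. Greb1, an estrogen-regulated gene, had 130.3 KO and 208.2 WT tags unstimulated, 88.7 KO and 268.7 WT tags with HDL, and 171.1 KO and 172.4 WT tags with HDL + CpG, where its centre fell on the repeat. The WT/KO ratio was 1.60 (1.45 to 1.76), 3.03 (2.73 to 3.36) and 1.01 (0.914 to 1.11), so the peak was kept with HDL alone. Dab2, named after its values were seen, encodes an endocytic adaptor and had 29.7 KO and 56.8 WT tags unstimulated, 26.5 KO and 71.5 WT tags with HDL, and 45.5 KO and 44.5 WT tags with HDL + CpG. Fam46c followed the same order, with ratios of 1.72, 2.63 and 0.919, and so did Pde1c, with 1.80, 3.22 and 1.12, and Map2k6, with 2.03, 2.70 and 1.00. Pde1c and Map2k6 were first-intron peaks off repeats with HDL only, and their peaks in the other lists were centred on a repeat. The unstimulated Map2k6 peak was kept as well.

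Abcd3 and Scn8a, named after their values were seen, held such copies too and were listed as first-intron peaks with HDL, where both were removed. Abcd3 had 4.69 KO and 6.85 WT tags (WT/KO 1.46) and Scn8a had 3.18 KO and 6.06 WT tags (1.91), far fewer than the others.

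Annotated repeats had the same order of conditions. Standard peaks centred on annotated TTAGGG repeats had median ratios of 1.76 unstimulated (82 peaks), 2.95 with HDL (86 peaks) and 1.01 with HDL + CpG (84 peaks). Without the peaks that held adjacent TTAGGG copies, first-intron peaks were kept at 46.0, 68.8 and 63.9%, a change of less than 2 percentage points in each condition. Some 77 of the 820 peaks overlapped a peak of another condition that was centred on a repeat, so the split by repeat depends on where the centre fell.

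**Figure D5:**
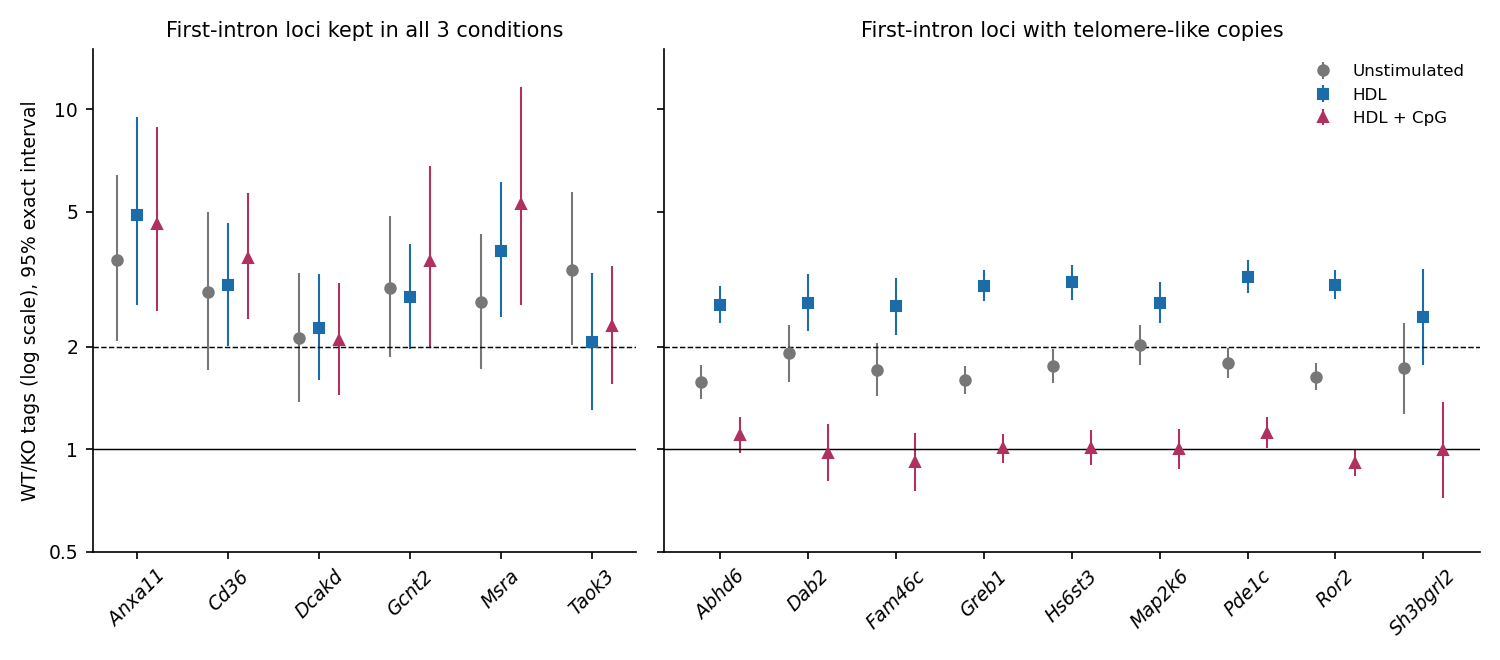
WT/KO tag ratio (y axis, log scale) with exact 95% intervals in unstimulated, HDL and HDL + CpG cells, for the 6 first-intron loci kept in all conditions (left) and 9 of the loci with adjacent telomere-like copies (right, Abcd3 and Scn8a not drawn), by host gene (x axis). The 6 loci on the left lay above 2 in each condition, a level set by the 2-fold filter through which they were chosen. The difference in level between left and right is therefore not a result. Ratios of the 9 loci on the right were at least 1.58 and at most 2.03 in unstimulated cells. With HDL these ratios lay between 2.44 and 3.22, and after HDL + CpG they fell between 0.913 and 1.12. On the right, peaks centred on a repeat in a given list are drawn too.

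Litaf, named for its induction by lipopolysaccharide, had 242.5 KO and 236.5 WT tags with HDL + CpG, and was annotated to a satellite repeat in the other 2 lists. Ror2, a Wnt receptor gene, had 205.7 KO and 187.8 WT tags with HDL + CpG and lay on a telomere-type repeat in the other lists, where its ratio was 1.63 unstimulated and 3.05 with HDL. Tiam2 and Zfp981, removed with HDL, had 16.8 KO and 28.5 WT tags and 27.9 KO and 31.6 WT tags. Kctd16, removed with HDL, had 58.0 KO and 67.2 WT tags, and St8sia5, removed in unstimulated cells, had 62.4 KO and 66.8 WT tags. Abhd6 and Hs6st3 (the second named after its values were seen), removed with HDL + CpG, had 106.1 KO and 117.1 WT tags and 114.3 KO and 115.8 WT tags.

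The kept peaks with the highest scores mostly had more tags than the median kept peak, in KO as well as in WT. In unstimulated cells Cdkn1a, which encodes the cell cycle inhibitor p21, had 4.37 KO and 15.4 WT tags (WT/KO 3.51, 2.25 to 5.57). Abl1, a tyrosine kinase gene, had 2.52 KO and 11.9 WT tags, Jazf1 had 4.77 and 16.7, and Kcnq5, a potassium channel gene, had 3.04 and 10.5, KO first. With HDL + CpG Fbxw11, a ubiquitin ligase subunit gene, had 4.63 KO and 17.99 WT tags, Lhfpl2 3.79 and 13.8, and Dock2, a Rac activator of leukocytes, 4.63 and 15.4. Cadm1, a cell adhesion gene, had the highest score among kept peaks of that condition, with 11.2 KO and 25.1 WT tags (WT/KO 2.25). Map2k3, the kinase that activates p38, had 5.26 KO and 15.4 WT tags with the pair of heptamers shown above. With HDL the highest scores among kept peaks were those of Pde1c, Greb1, Map2k6 and Fam46c, whose peaks held adjacent TTAGGG copies (above). Trim7 came next, with 9.54 KO and 23.5 WT tags.

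Among genes of lipid and cholesterol handling, 3 of 41 listed genes hosted first-intron peaks, and 8 of their 9 peaks were kept. Over all first-intron peaks of the 3 lists, 515 of 820 (62.8%) were. By condition that share was 44.6% unstimulated, 68.6% with HDL and 62.4% with HDL + CpG, and the gene lists differed in their mix of conditions. The share of all genes that host a first-intron peak was not computed, so counts of hosts are descriptions. Where a gene held several first-intron peaks, the values here and in the lists that follow are those of the peak with the most WT tags and its locus, unless others are named. Besides Cd36, the lipid genes with peaks were Nceh1, which hydrolyses cholesterol esters for export, and Npc1, which moves cholesterol out of lysosomes. Nceh1 had 7.72 KO and 21.6 WT tags with HDL and 8.42 KO and 18.4 WT tags with HDL + CpG. Npc1 had 5.75 KO and 20.04 WT tags with HDL and 2.11 KO and 10.9 WT tags with HDL + CpG. Neither was listed as a first-intron peak in unstimulated cells.

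Genes of integrins, adhesion and the cytoskeleton had the most hosts of any list. Of 53 listed genes 12 hosted peaks, each of the 12 had at least 1 kept peak, and 20 of their 26 peaks were kept. By condition 3 of 4 unstimulated, 11 of 15 HDL and 6 of 7 HDL + CpG peaks were kept. Arhgap18 had 5.43 KO and 15.6 WT tags unstimulated and 5.15 KO and 16.9 WT tags with HDL, and was kept in both. Lcp1, which encodes the actin bundler L-plastin, had 8.63 KO and 18.5 WT tags with HDL at a kept peak, and a second HDL peak was removed at 3.48 KO and 10.3 WT tags. Ptk2b, the kinase Pyk2, had 1 locus with 6.66 KO and 10.3 WT tags with HDL, removed there, and 8.21 KO and 21.4 WT tags with HDL + CpG, kept there. Of its 3 other HDL peaks 2 were kept, at ratios of 3.69 and 2.40. The others were Dock2, Elmo1, Fmnl2, Iqgap2, Itgav, Itgb3, Itgb5, Rac1 and Tln1. Elmo1 and Ptk2b each held 4 separate first-intron loci, the most of any gene.

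In Toll-like receptor and NF-κB signalling 4 of 42 genes hosted 5 peaks, of which all but the one in Irak2 were kept. Tlr4, the lipopolysaccharide receptor, had 5.75 KO and 12.7 WT tags with HDL and 1.05 KO and 8.89 WT tags with HDL + CpG. The second ratio, 8.47, rested on 5 KO reads and had an interval of 3.36 to 27.3. Traf3, an adaptor of the pathway, had 4.09 KO and 12.1 WT tags with HDL, and Nfkbib, an inhibitor of NF-κB, had 2.12 KO and 9.75.

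The bZIP genes held 3 first-intron peaks in 2 of 40 genes, all kept. Nfe2l2 encodes NRF2, the regulator of antioxidant genes, and had 6.36 KO and 18.5 WT tags with HDL and 5.47 KO and 16.0 WT tags with HDL + CpG. Nfil3, a bZIP repressor gene, had 3.79 KO and 10.7 WT tags with HDL + CpG. Other transcription factors of macrophages held 13 peaks in 7 of 61 genes, 8 of them kept. Mitf had 4.24 KO and 12.4 WT tags with HDL at a kept peak, and of its other 2 HDL peaks 1 was kept. Fli1, an ETS factor gene, had 1 locus with 3.78 KO and 9.49 WT tags with HDL, removed there, and 4.63 KO and 14.8 WT tags with HDL + CpG, kept there. Another Fli1 locus was kept with HDL, at 1.82 KO and 7.12 WT tags. Irf2 had 8.63 KO and 15.2 WT tags with HDL + CpG and was removed. The remaining hosts were Klf3, Pparg, Runx2 and Tfeb.

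Phosphatases and inhibitory receptors held 5 peaks in 3 of 38 genes, 4 of them kept. Dusp4, which switches off MAP kinases, had 0.84 KO and 8.09 WT tags with HDL + CpG (WT/KO 9.63, 3.47 to 37.0, from 4 KO reads). Inpp5d, the lipid phosphatase SHIP1, had 4.24 KO and 9.75 WT tags with HDL and 2.11 KO and 8.69 with HDL + CpG. Ptprj, a receptor-type tyrosine phosphatase, had 5.43 KO and 12.7 WT tags at the kept unstimulated peak, and 8.63 KO and 9.10 WT tags at another peak that was removed with HDL + CpG.

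Solute carrier and lysosomal transport genes had 7 of 10 peaks kept. Slc7a5, an amino acid transporter, had 7.55 KO and 14.3 WT tags unstimulated (removed), 8.48 KO and 23.7 WT tags with HDL (kept), and 4.84 KO and 12.9 WT tags with HDL + CpG (kept). Slc7a8, of the same family, was kept with 5.16 KO and 12.9 WT tags unstimulated and 3.16 KO and 11.9 WT tags with HDL + CpG. Ctsb, the protease cathepsin B, had 7.58 KO and 18.6 WT tags with HDL + CpG.

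Cell cycle and survival genes had 5 of 11 peaks kept. Cdkn1a was kept in unstimulated cells (above) and, with 4.69 KO and 10.6 WT tags, with HDL. Bcl2, the inhibitor of apoptosis, had 5.43 KO and 10.2 WT tags unstimulated (removed), 4.69 KO and 20.3 WT tags with HDL (kept), and 5.26 KO and 15.2 WT tags with HDL + CpG (kept). Ccnd3, a cyclin gene with an AP-1 heptamer 6 to 10 bp from the centre, was removed unstimulated and with HDL, at ratios of 1.84 and 2.20, and kept with HDL + CpG, at 3.63.

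Cytokine, chemokine and receptor genes had 4 of 8 peaks kept. Il17ra had 5.16 KO and 14.8 WT tags unstimulated (kept), 5.30 KO and 10.3 WT tags with HDL (removed), and 2.95 KO and 7.88 WT tags with HDL + CpG (kept). Cx3cr1, the fractalkine receptor, was kept with HDL + CpG at 4.84 KO and 9.91 WT tags. Tnfrsf1b, a TNF receptor, was removed with HDL at 8.78 KO and 12.7 WT tags and with HDL + CpG at 9.05 KO and 12.3. Of the macrophage identity genes, Cd86 was kept with HDL + CpG at 2.11 KO and 11.1 WT tags, and P2ry6 was removed with HDL at 6.96 KO and 13.2. The single host among stress genes was Trib3, removed in unstimulated cells at 5.43 KO and 12.4 WT tags.

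Neuronal adhesion and synapse genes, known for roles in neurons, served as a comparison. They held 6 first-intron peaks in 5 of 62 genes, 4 of them kept, which is a share near that of all first-intron peaks. With HDL the kept peaks included Dscam at 4.69 KO and 19.8 WT tags, Negr1 at 3.63 KO and 11.9, and Dpp6 at 4.24 KO and 10.0. No list's count was tested.

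The largest ratios came from few KO reads. Examples among the 12 largest, chosen after their values were seen, were Mfsd12, which encodes a lysosomal transporter, with 0.15 KO and 5.80 WT tags with HDL (1 KO read and 22 WT reads, WT/KO 38.7, 6.19 to 1581), and Phactr2, with 0.61 KO and 9.49 WT tags (15.6, 5.62 to 60.6). Elmo1, a partner of Dock2, had 1.26 KO and 15.8 WT tags with HDL + CpG (12.5, 5.48 to 35.1). Gbp3, an interferon-induced guanylate-binding protein gene, had a pair of kept HDL peaks at ratios of 11.1 and 9.11, and Pparg, the lipid-sensing nuclear receptor gene, had 1.06 KO and 8.96 WT tags with HDL (8.45, 3.69 to 22.6).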

How the data were processed

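The submitters' processing notes name CASAVA 1.8, Bowtie 0.12.8, MACS 1.4.2 and HOMER 4.3, with mm9 as the build, and the study's methods name another MACS release. The authors concatenated the replicates before alignment, kept the best position of multi-mapping reads and called standard peaks on WT reads. They made KOIN-corrected peaks with the KO library as control and a WT/KO minimum of 2. The study's methods also describe a call with WT and KO swapped, after which WT peaks that met a KO peak were left out. The score in the deposited lists is the one MACS gave each peak. The signal in the deposited lists is tags per peak, which the authors scaled to 10000000 per library. Values lay within 0.005 tags of whole reads at the totals in the headers, so reads were recovered for exact (Clopper-Pearson) intervals. Keeping the best position of multi-mapping reads can pile reads onto repeats.

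Only the first-intron standard peaks off repeats, and the classes set against them, were counted, by overlap of at least 1 bp. With 1 pooled library a group no test was run. Sequences were searched within 100 bp of peak centres in NCBIM37, the mm9 assembly, and in windows shifted by 1000 bp. One sequence chosen for printing is not reported here. Host names came from the lists (424 of 532 transcripts) or from RefSeq gene names. Peaks were named by a rule: per condition the 6 kept peaks with the highest score and the 4 removed peaks with the most WT tags, loci kept in all 3 conditions, up to 3 genes for each of 12 gene lists by WT tags, and Cd36, Cdkn1a and Ptprj. Exceptions are marked. The members, the lists and the rule were chosen with earlier results of these data known. Alternatives were score minimums of 60 and 100, other overlaps and windows, merging, autosomes only, a pseudocount of 1 tag, scaling to repeats and 1 mismatch. Reads were not analysed here, nor was the file of library barcodes. The scripts were tested on simulated data. Figures were drawn with matplotlib 3.10.9, sequences read with pysam 0.24.0, intervals computed with scipy 1.17.1, and tables handled with pandas 2.3.3 and numpy 2.4.6 under Python 3.11.15.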

Additional observations from a re-analysis of the deposited data

Results flagged for a closer look

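The first-intron peak of Fbxw7, a ubiquitin ligase subunit gene, was 1 of 7 loci whose first-intron peaks had a WT/KO ratio above 1 in a condition and below 1 in another. Of the 7 it alone had exact intervals on both sides of 1, below it with HDL + CpG and above it in both other conditions. It had 10.1 KO and 19.9 WT tags unstimulated, 7.11 KO and 16.1 WT tags with HDL, and 17.3 KO and 7.88 WT tags with HDL + CpG. The ratios were 1.98 (exact 95% interval 1.42 to 2.76), 2.26 (1.52 to 3.38) and 0.457 (0.304 to 0.677), from 82 KO and 39 WT reads in the last case. The peak was removed in each condition, and the difference between conditions was not tested.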

How the results depend on the processing

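No paired analysis was possible because each group has 1 pooled library, and for the same reason no replicate could be left out. Of 75 alternative values for 15 results, 33 stayed inside the interval given in the report and 42 left it, given here in the order unstimulated, HDL, HDL + CpG where all 3 moved. With a score of at least 100, kept shares became 12.5% (1 of 8 peaks), 87.5 and 31.2%, and shares at 2-fold 12.5, 90.6 and 31.2%. With a score of at least 60 the HDL kept share became 82.6% and shares at 2-fold 39.5, 87.6 and 66.0%. Median ratios became 1.88 (unstimulated, score 60), 1.66 (unstimulated, score 100) and 1.09 (HDL + CpG, score 100). The pseudocount gave 45.4, 71.7 and 63.5% at 2-fold and medians of 2.36 (HDL) and 2.24 (HDL + CpG). Scaling to repeats gave 23.1, 8.73 and 64.7% and medians of 1.42, 1.22 and 2.33. AP-1 shares in kept peaks became 20.7, 20.96 and 25.9% within 50 bp, 53.4, 50.2 and 59.6% over whole peaks and 62.1, 72.5 and 78.3% with 1 mismatch, and 58.6% with HDL + CpG at a score of 60. In removed peaks they became 11.3% (HDL) and 16.0% (HDL + CpG) within 50 bp, 33.3% (unstimulated) and 34.6% (HDL) over whole peaks, 54.2, 64.7 and 58.0% with 1 mismatch, and 13.9% with HDL + CpG at a score of 60. Kept peaks held AP-1 more often than removed ones under each of these window and mismatch settings. An overlap of 50%, merging, autosomes and matching start sites, run for the kept shares, moved none of them outside its interval. Leaving out TTAGGG peaks, chosen after seeing the data and run for kept shares, shares at 2-fold and medians, moved none of those. Depth limits single peaks, since the median peak holds 21 to 54 reads in a library, and the causes of these changes were not tested.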

Other observations

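The KOIN-corrected lists held 61, 306 and 178 first-intron peaks off repeats in unstimulated, HDL and HDL + CpG cells, of which 3, 15 and 12 overlapped no standard peak of their condition and are not counted above. Of 11 host genes with 3 or more separate first-intron loci, 4 are named after their values were seen. Hivep2, a zinc finger factor gene, and Dyrk1a, a kinase gene, had all of their peaks kept (4 of 4 and 3 of 3), while Clic4 and Tank, an adaptor of TRAF signalling, had 1 of 3 each. First-intron peaks that overlapped no standard peak of any class in another list were kept in 17 of 31 unstimulated, 167 of 240 HDL and 73 of 103 HDL + CpG cases. Those that met a standard peak in all 3 lists were kept in 17 of 51, 31 of 49 and 23 of 57. The same shares over all standard peaks were not computed, so this contrast cannot be called particular to first introns.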
